A study of Mus musculus with 20 samples.

Results

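Ccl3, Ccl24, Cx3cl1, Il33 and Il1r1 were followed in mouse liver: 3 chemokines, 1 cytokine of the interleukin-1 (IL-1) family and the signalling receptor for IL-1. They were chosen by name, from the mouse genes found by reading the counted intervals as mouse genome positions and keeping those over exons of exactly 1 mouse gene by at least 50 bp. The 5 genes are among 5552 mouse genes that could be named in this way and among 2200 that passed a filter on low counts.

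RNA was sequenced from the livers of 20 individual mice, 5 in each of 4 groups. The groups were mice given anti-CD40 with antibiotics (ABX, mice 11 to 15), control mice with ABX (mice 1 to 5), mice given anti-CD40 with no ABX (mice 16 to 20) and control mice with no ABX (mice 6 to 10). Anti-CD40 is an antibody that binds CD40, which antigen-presenting cells carry as one of the tumour necrosis factor receptors. The sources used here do not give strain, sex, age, antibody clone, dose and time after the antibody, the antibiotics or what control mice received, and all mice share the same tissue label.

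With ABX, libraries held 5053014 to 5874749 counted fragments in anti-CD40 mice and 6201453 to 7282519 in control mice. Without ABX they held 5391794 to 6211642 in anti-CD40 mice and 6196703 to 7618736 in control mice. The liver label was checked on Alb, the albumin gene of hepatocytes, which averaged 81136 ± 11136 CPM in anti-CD40 mice and 205928 ± 34543 CPM in control mice with ABX, and 60915 ± 9650.4 CPM in anti-CD40 mice and 159626 ± 9355.4 CPM in control mice without ABX (SD, n = 5 each). CPM is the count scaled to a common number of counted fragments and normalised between libraries. No gene was deleted in this study, so there was no targeted gene to check. Of 190 pairs of libraries, 0 held identical counts. In 4 anti-CD40 libraries (mice 14 and 15 with ABX, mice 19 and 20 without ABX) Pecam1, an endothelial adhesion molecule, lay between 7.41 and 15.4 CPM, against 35.2 to 76.9 CPM in the other libraries. Some results of Ccl3, Cx3cl1, Il33 and Il1r1 that use these 4 libraries are also given without them. A lower level in bulk liver cannot tell fewer cells of a type from less RNA per cell.

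Chemokines are small secreted proteins that draw white blood cells along a gradient by binding receptors on them. CCL3 is made by activated macrophages and other white blood cells and attracts cells with the receptor CCR1, while CCL24 (eotaxin-2) attracts eosinophils through CCR3. CX3CL1 (fractalkine) is made as a membrane protein, chiefly by endothelial and epithelial cells, can be shed by the protease ADAM17, and binds CX3CR1 on monocytes and lymphocytes. IL-33 is a nuclear cytokine of barrier, endothelial and stromal cells that is released on damage and acts through the receptor ST2 (gene Il1rl1) with the accessory protein IL1RAP. IL1R1 binds IL-1 alpha and IL-1 beta, also with IL1RAP, and signals through MYD88 and TRAF6 to NF-kB, the transcription factor that drives many inflammatory genes, chemokines among them.

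The counts had been made with a human exon annotation on mouse alignments, so each gene was measured by human features that happen to lie over parts of its exons. The count of a feature was taken whole. Any of its intervals outside mouse exons added to it, and the lengths below are the exon parts only. All positions are on mm10. Ccl3 (ENSMUSG00000000982) was measured over 171 bp on the minus strand at chr11:83647873-83648043, which lie wholly in the 3′ untranslated region of its exon 3, and no letters of it are shown. Ccl24 (ENSMUSG00000004814) was measured over 285 bp on the minus strand at chr5:135570679-135570963, in exon 3 of 3, of which 166 bp code for protein. Cx3cl1 (ENSMUSG00000031778) was measured over 57 coding bp at chr8:94780359-94780415 and 83 bp of 3′ untranslated region at chr8:94781084-94781166, both on the plus strand in exon 3 of 3. Il33 (ENSMUSG00000024810) was measured over 88 coding bp at chr19:29956901-29956988 on the plus strand, in exon 7 of 8. These are 22.3% of the exon length of Ccl3, 22% of Ccl24, 3.56% of Cx3cl1 and 3.05% of Il33. Il1r1 (ENSMUSG00000026072), on the plus strand of chromosome 1, was measured over 1684 bp (26.5% of its exons), in 2 features counted separately: 428 bp of exons 3 and 4 and 1256 bp of exons 7, 9, 10 and 11. The coding stretches below are what the counts of these genes rest on, read 5′ to 3′ along the transcript from the GENCODE M21 transcripts, with in-frame cysteine codons in capitals because cysteines join the folds of chemokines and of the receptor's outer immunoglobulin-like domains. A stretch with no capitals holds no such codon. Of Il1r1, exon 3 (chr1:40293120-40293357), in the ligand-binding outer part, and exon 10 (chr1:40312347-40312479), in the inner signalling (TIR) domain, are shown because the parts of this gene gave different values.
Ccl24 exon 3, chr5:135570798-135570963: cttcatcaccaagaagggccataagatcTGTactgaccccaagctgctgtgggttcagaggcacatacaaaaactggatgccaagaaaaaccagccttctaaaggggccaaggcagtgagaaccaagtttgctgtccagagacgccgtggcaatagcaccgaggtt
Cx3cl1 exon 3, chr8:94780359-94780415: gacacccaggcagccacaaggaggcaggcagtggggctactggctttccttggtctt
Il33 exon 7, chr19:29956901-29956988: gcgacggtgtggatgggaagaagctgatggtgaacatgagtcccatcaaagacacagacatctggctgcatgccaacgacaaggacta
Il1r1 exon 3: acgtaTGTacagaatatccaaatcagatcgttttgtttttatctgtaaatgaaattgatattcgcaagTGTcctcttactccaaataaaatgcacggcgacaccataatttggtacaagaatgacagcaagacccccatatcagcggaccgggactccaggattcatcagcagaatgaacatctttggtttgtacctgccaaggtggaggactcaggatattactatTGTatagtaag
Il1r1 exon 10: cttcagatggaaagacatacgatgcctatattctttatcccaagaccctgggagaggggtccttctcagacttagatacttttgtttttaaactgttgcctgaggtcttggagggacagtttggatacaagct

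Anti-CD40 mice had many times the Ccl3 of control mice and less Ccl24, whether or not ABX was given. With ABX, 3 of the 5 genes passed the test for anti-CD40 against control: Ccl3 and Il1r1 were higher and Ccl24 was lower. Without ABX, 3 of the 5 passed: Ccl3 and Il33 were higher and Ccl24 was lower. Anti-CD40 changed much of the liver transcriptome, and 51.5% of the 2200 genes tested passed with ABX (26.6% higher, 24.9% lower) and 60.6% without ABX (31.8% higher, 28.8% lower), so a share of 3 in 5 is near that of all genes. The test was edgeR's quasi-likelihood F-test with Benjamini-Hochberg adjustment over all genes tested, and a gene passed at an adjusted p under 0.05. Ccl3, Cx3cl1 and Il33 passed the filter on low counts only through the anti-CD40 livers, which alone held enough libraries at or above 1.61 CPM, so these counts of genes are a description. The same holds for the p-values and ranks of these 3 genes for anti-CD40 against control.

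**Figure D1:**
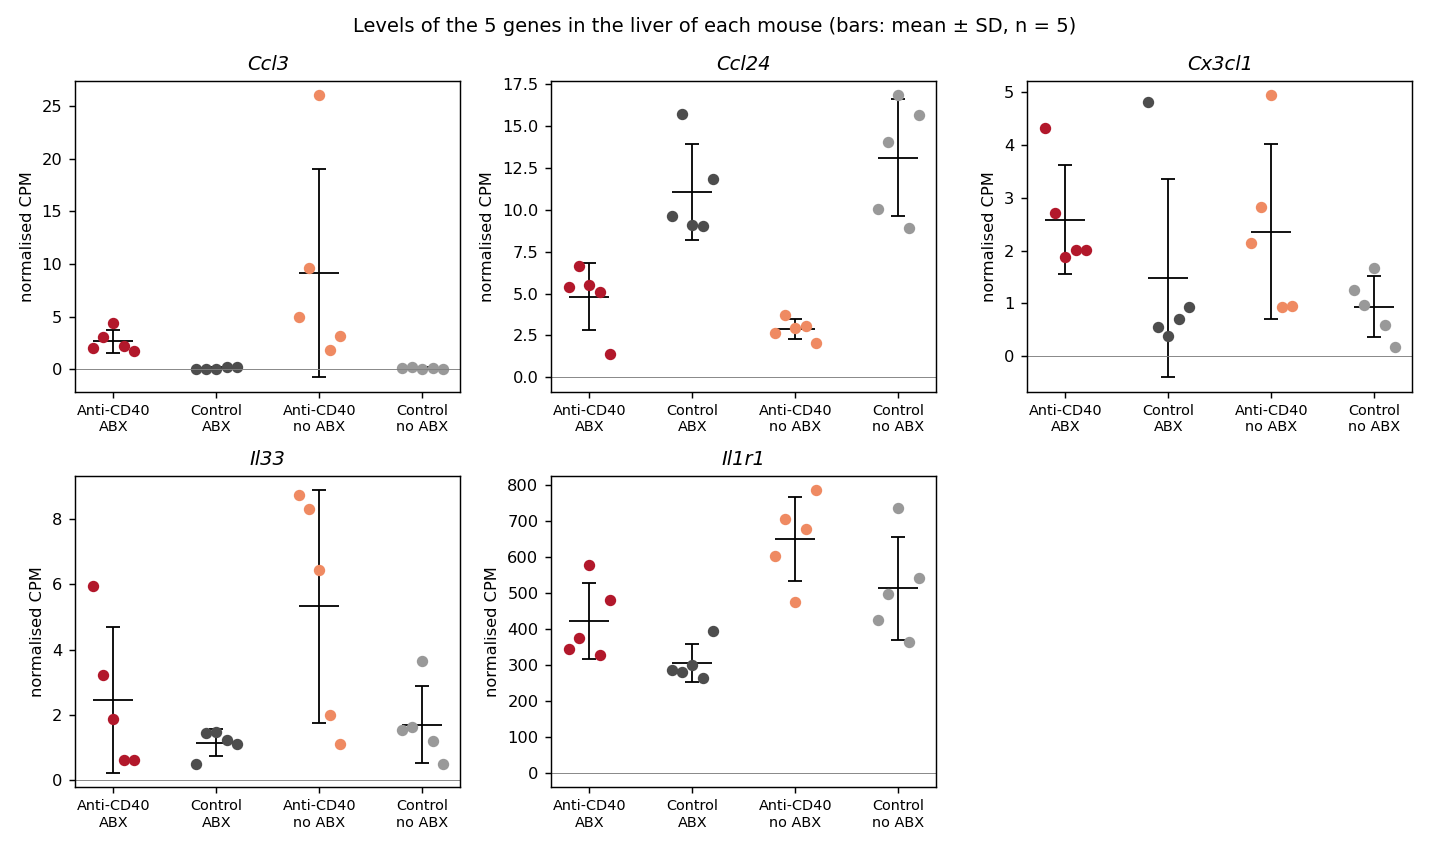
Normalised CPM (y axis, a scale for each gene) of the 5 genes in each of 20 livers, by group (x axis); points are mice and bars are mean ± SD (n = 5). Ccl3 was at most 0.185 CPM in every control liver and at least 1.70 CPM in every anti-CD40 liver, and Ccl24 was lower in every anti-CD40 liver than in any control liver of the same ABX status.

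Ccl3 was all but absent from control livers. With ABX it had 11, 18, 28, 14 and 11 counts in the 5 anti-CD40 mice, or 1.98, 3.06, 4.40, 2.16 and 1.70 CPM. The control mice with ABX had 0, 0, 0, 1 and 1 counts. Every anti-CD40 liver lay above every control liver. Without ABX it had 30, 75, 158, 12 and 20 counts in the 5 anti-CD40 mice, or 4.95, 9.60, 26.1, 1.86 and 3.15 CPM. The control mice without ABX had 1, 1, 0, 1 and 0 counts. Mouse 18 alone held 158 of the 295 Ccl3 counts of the anti-CD40 mice without ABX, and the groups again did not overlap. A count of 0 allows a level of up to 0.481 to 0.558 CPM in these libraries (3 counts).

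Because the control groups held only 2 and 3 Ccl3 counts, the size of the change is given as a ratio of summed counts with its 95% exact binomial interval, which covers counting error only. With ABX, Ccl3 was 37.6 times as high in anti-CD40 mice as in control mice (10.1 to 316, 82 against 2 counts). Without ABX the ratio was 96.1 (32.6 to 469, 295 against 3 counts), and without mouse 18 it was 54.8 (18.4 to 269). Both differences passed the edgeR test (adjusted p = 0.000591 with ABX and 2.01e-06 without ABX). The fitted log2 fold changes of 4.88 ± 1.06 (SE) with ABX and 6.33 ± 0.85 without ABX depend on how counts of 0 are handled. By fitted change, Ccl3 ranked 22 from the top of 2200 genes with ABX and 8 from the top without ABX. As Ccl3 passed the filter only through the anti-CD40 livers, these p-values and ranks describe it and are no separate support. With the 4 libraries low in Pecam1 left out, these changes were 5.11 ± 0.82 and 6.87 ± 0.63, so they were as large without those libraries.

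Ccl24 moved the other way. With ABX it had 5.41, 6.63, 5.50, 5.08 and 1.39 CPM in anti-CD40 mice, against 9.63, 15.7, 9.11, 9.01 and 11.8 CPM in control mice. No anti-CD40 liver reached the lowest control liver, and mouse 15 was far under the rest of its group. Without ABX it had 2.64, 3.71, 2.97, 3.09 and 2.05 CPM in anti-CD40 mice, against 10.1, 14.1, 16.8, 8.91 and 15.7 CPM in control mice. The groups were apart, with the anti-CD40 livers close together. Among all genes tested, 37.8% had groups that did not overlap with ABX and 42.5% without ABX. Ccl24 fell by 1.21 ± 0.27 on the log2 scale with ABX (2.31-fold lower, adjusted p = 0.00055) and by 2.16 ± 0.28 without ABX (4.46-fold lower, adjusted p = 4.38e-07).

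Cx3cl1 was low, at 1 to 30 counts a library. With ABX it had 4.33, 2.72, 1.89, 2.0 and 2.01 CPM in anti-CD40 mice, against 4.81, 0.542, 0.372, 0.707 and 0.923 CPM in control mice. Control mouse 1 was above all 5 anti-CD40 mice, and the other 4 control mice were below all of them. The log2 fold change was 0.75 ± 0.58 (adjusted p = 0.3), with a 95% interval from -0.46 to 1.95. Without mouse 1 it was 1.98 ± 0.56 and passed (adjusted p = 0.00487), so that 1 library decides the call. Without ABX it had 2.14, 2.82, 4.95, 0.928 and 0.946 CPM in anti-CD40 mice, against 1.26, 0.969, 1.67, 0.594 and 0.168 CPM in control mice. Mice 16, 17 and 18 were above every control mouse, while mice 19 and 20 lay among them. The log2 fold change of 1.31 ± 0.62 missed the threshold (adjusted p = 0.0713), and it passed when mouse 8, 19 or 20 was left out (1.59, 1.49 and 1.49) and without the 4 libraries low in Pecam1 (1.77 ± 0.65, adjusted p = 0.0267).

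Il33 was also low, and it varied widely among the mice of each anti-CD40 group. With ABX it had 33, 19, 12, 4 and 4 counts in anti-CD40 mice, or 5.95, 3.23, 1.89, 0.616 and 0.617 CPM, against 0.481, 1.45, 1.49, 1.24 and 1.11 CPM in control mice. Mice 11, 12 and 13 were above every control mouse, and mice 14 and 15 were below 4 of the 5. The log2 fold change was 1.06 ± 0.69 (adjusted p = 0.207, 95% interval -0.36 to 2.48). Without ABX it had 53, 65, 39, 13 and 7 counts in anti-CD40 mice, or 8.74, 8.32, 6.43, 2.01 and 1.10 CPM, against 1.54, 1.62, 3.67, 1.19 and 0.505 CPM in control mice. Mice 16, 17 and 18 were above every control mouse, and mice 19 and 20 lay within the control range. The rise of 1.65 ± 0.59 passed (3.13-fold, adjusted p = 0.0206), but not when mouse 10, 16 or 17 was left out (1.42, 1.38 and 1.40). A second counted interval over Il33 (120 bp) also lay over another gene, Trpd52l3, and its 22 counts in all libraries were not used.

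In each anti-CD40 group the 2 libraries with the least Il33 were those low in Pecam1, as the plot of Il33 beside Pecam1 and Lyz2 shows. In mice 14 and 15 Pecam1 was 7.70 and 7.41 CPM, against 52.8, 53.5 and 35.2 CPM in mice 11 to 13. In mice 19 and 20 it was 15.3 and 15.4 CPM, against 76.9, 61.8 and 69.1 CPM in mice 16 to 18. Lyz2, a lysozyme gene of macrophages and other myeloid cells, was lower in the same animals: 278 and 286 CPM in mice 14 and 15, and 354 and 240 CPM in mice 19 and 20, against 495 to 958 CPM in the other 6 anti-CD40 mice. All 10 anti-CD40 mice were above every control mouse in Lyz2, where it was 94.2 to 130.3 CPM with ABX and 90.9 to 201 CPM without ABX. After each group's mean was taken out, log2 CPM of Il33 and Lyz2 correlated with r = 0.90, Il33 and Pecam1 with r = 0.88, Il33 and Stab2 (a scavenger receptor of sinusoidal endothelium) with r = 0.83, and Il33 and Col3a1 (a collagen) with r = 0.78. The other markers compared with Il33 gave lower values: r = 0.72 for Mrc1 and 0.59 for Adgre1, a macrophage marker. For Lum, a stellate cell and fibroblast marker, and for Marco, a Kupffer cell marker, r was 0.35 each. These are descriptions over 20 libraries that share normalisation and depth. Without the 4 libraries the change of Il33 was 1.65 ± 0.46 with ABX (adjusted p = 0.0054) and 2.18 ± 0.39 without ABX (adjusted p = 6.53e-05). Those libraries are also the 2 lowest in Il33 within each anti-CD40 group, so leaving them out favours a larger change.

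**Figure D2:**
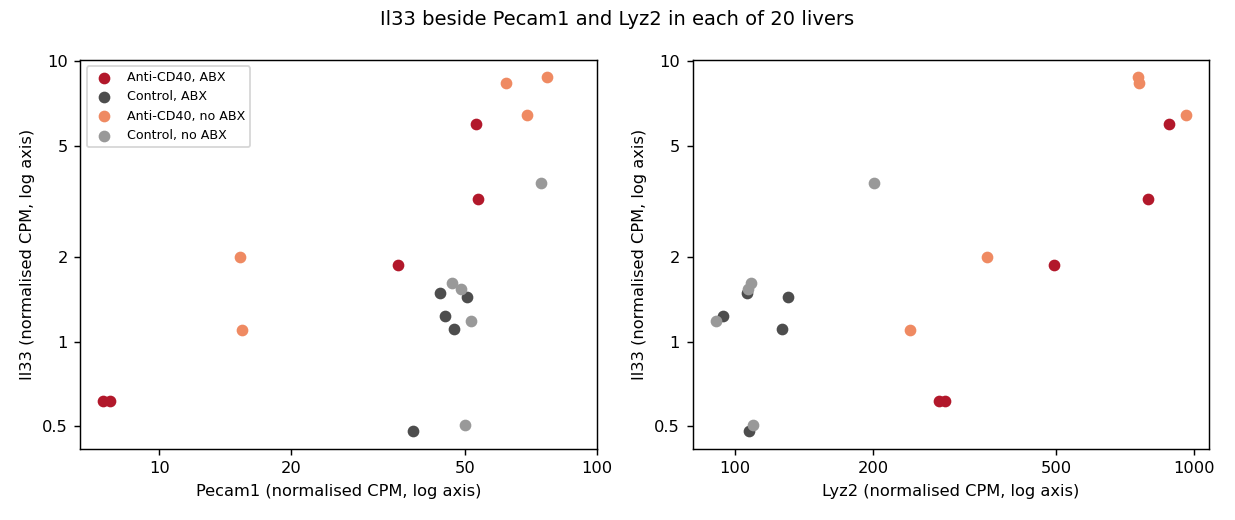
Il33 (y axis) against Pecam1 (left) and Lyz2 (right) in each of 20 livers, in normalised CPM on log axes; points are mice, coloured by group. The 4 anti-CD40 livers with Pecam1 at 7.41 to 15.4 CPM had 0.616 to 2.01 CPM of Il33, and the other 6 had 1.89 to 8.74 CPM.

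Il1r1 was far more abundant than the 4 ligands, also per length of counted exon: 249.8 ± 62.7 CPM per kb in anti-CD40 mice and 181 ± 30.9 CPM per kb in control mice with ABX, and 385 ± 69.5 CPM per kb in anti-CD40 mice and 305 ± 84.8 CPM per kb in control mice without ABX. The ligands stayed between 0.423 and 60.5 CPM per kb in the group means. Counts from intervals outside exons, if any, are part of these values. With ABX, Il1r1 had 345, 374, 578, 328 and 479 CPM in anti-CD40 mice, against 287, 281, 299, 263 and 395 CPM in control mice. Only control mouse 5 was above any anti-CD40 mouse. The rise of 0.46 ± 0.19 passed narrowly (1.38-fold, adjusted p = 0.0447), and did not pass when any one of mice 1, 2, 3, 4, 13 and 15 was left out (0.33 to 0.46) or without the 4 libraries low in Pecam1 (0.48 ± 0.22, adjusted p = 0.0802). Without ABX it had 603, 705, 475, 677 and 785 CPM in anti-CD40 mice, against 425, 497, 737, 363 and 543 CPM in control mice. Control mice 7, 8 and 10 were above anti-CD40 mouse 18, control mouse 8 was also above 3 other anti-CD40 mice, and the change of 0.34 ± 0.19 missed the threshold (adjusted p = 0.123, 95% interval -0.04 to 0.72). It passed without mouse 8 (0.50, adjusted p = 0.02) and with library totals in place of the usual scaling (0.58, adjusted p = 0.0191).

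**Figure D3:**
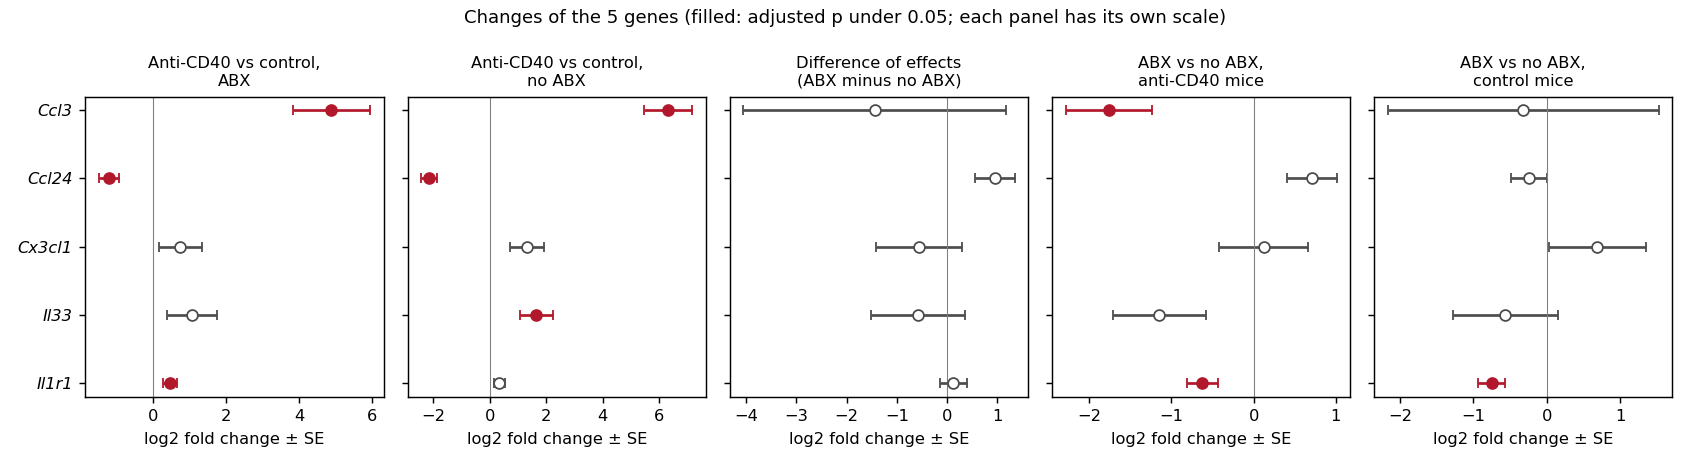
Log2 fold change ± SE (x axis, its own scale in each panel) of each gene in the 5 comparisons; filled points passed at an adjusted p under 0.05. With ABX the filled points are Ccl3, Ccl24 and Il1r1, without ABX they are Ccl3, Ccl24 and Il33, and in the ABX comparisons only Ccl3 and Il1r1 are filled.

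The 2 counted parts of Il1r1 did not move together without ABX. These parts are set by the counted intervals and not by the domains of the protein. The longer part holds 118 coding bp of exon 7 besides those of exons 9 and 10. The exons 7, 9, 10 and 11, most of whose counted length is 3′ untranslated region, averaged 561 ± 97.0 CPM in anti-CD40 mice and 418 ± 109.9 CPM in control mice without ABX, a log2 fold change of 0.43 ± 0.18 (adjusted p = 0.0498). The exons 3 and 4, of the outer ligand-binding part, averaged 88.3 ± 22.3 CPM in anti-CD40 mice and 95.5 ± 33.1 CPM in control mice, a log2 fold change of -0.11 (adjusted p = 0.694). Their share of all Il1r1 counts was lower in the anti-CD40 livers. The share was 12.2%, 15.9%, 12.2%, 13.9% and 13.2% in anti-CD40 mice without ABX, against 18%, 17.4%, 20.1%, 17.1% and 19.2% in control mice without ABX. The groups did not overlap, and the log2 ratio of the 2 parts differed by -0.53 (exact permutation test, two-sided, p = 0.00794, the smallest that 5 against 5 mice allow; adjusted p = 0.0317 over 4 comparisons). With ABX the share was 15.9%, 14.2%, 15.2%, 16.5% and 13.1% in anti-CD40 mice, against 17.1%, 18%, 15.3%, 14% and 15.2% in control mice. These overlapped (exact permutation test, difference of the log2 ratio -0.10, p = 0.373). Whether the difference with ABX departs from that without ABX was not tested, and which transcripts the parts come from cannot be read from these counts.

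**Figure D4:**
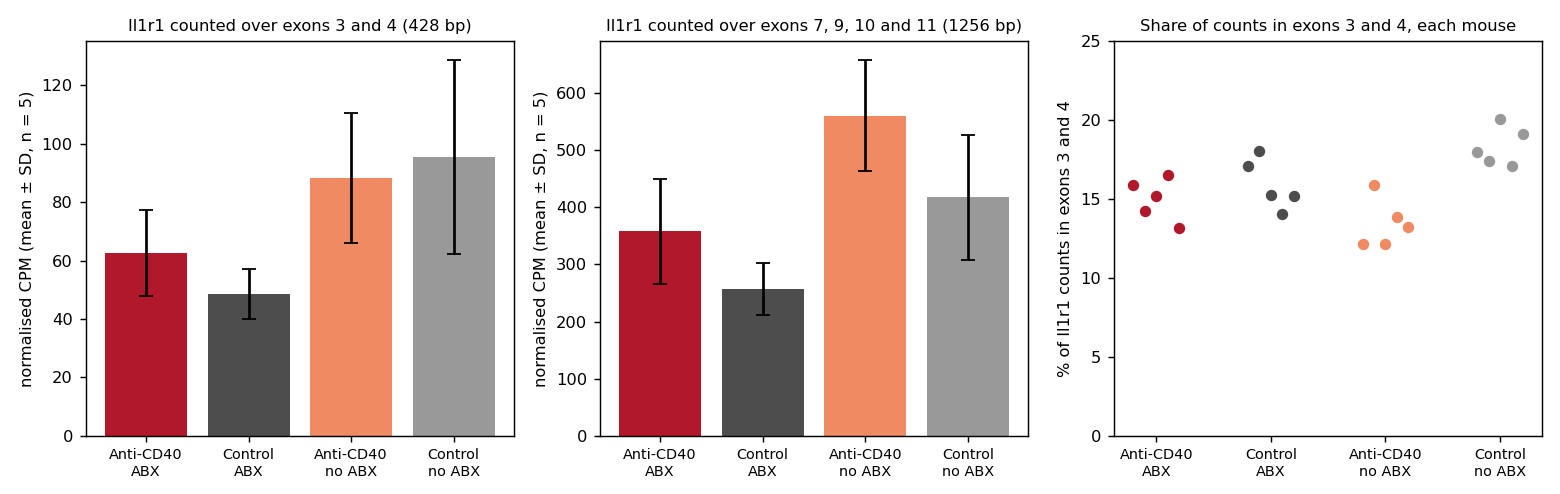
Il1r1 counts of the features over exons 3 and 4 (left) and over exons 7, 9, 10 and 11 (middle). Bars are mean normalised CPM ± SD (n = 5). On the right is the share of Il1r1 counts in the feature over exons 3 and 4 in each mouse (in %). Without ABX the share was 12.2% to 15.9% in anti-CD40 mice and 17.1% to 20.1% in control mice.

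The comparison of the anti-CD40 effect with and without ABX asked whether antibiotics changed the response. For these genes 0 of 5 passed, while 7.55% of all genes did (4.36% with a higher and 3.18% with a lower effect under ABX); 1 of 5 had an unadjusted p under 0.05 and DESeq2 also called 0. Ccl24, the gene with that unadjusted p, fell less with ABX (difference 0.95 ± 0.39 on the log2 scale, adjusted p = 0.135, 95% interval 0.15 to 1.75). It passed when mouse 15, the lowest of its group, was left out (1.20, adjusted p = 0.0239). The differences of Ccl3 (-1.45 ± 2.61), Cx3cl1 (-0.57 ± 0.85), Il33 (-0.58 ± 0.93) and Il1r1 (0.12 ± 0.26) had intervals on both sides of 0. Those intervals run from -6.84 to 3.95 for Ccl3, -2.33 to 1.19 for Cx3cl1, -2.51 to 1.34 for Il33 and -0.42 to 0.67 for Il1r1, so only for Il1r1 is a difference of 1 log2 unit outside the interval. For Ccl3, DESeq2 gave -1.43 with a smaller SE of 1.47, so the width of its interval depends on the method.

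Antibiotics went with less Il1r1, in anti-CD40 mice and in control mice alike. In anti-CD40 mice 2 of the 5 genes passed, both lower with ABX, where 15.9% of all genes passed (8.68% higher, 7.23% lower). In control mice 1 of the 5 passed, Il1r1, lower with ABX, where 6.68% of all genes passed (3.45% higher, 3.23% lower). Il1r1 averaged 421 ± 106 CPM with ABX and 649 ± 117 CPM without ABX in anti-CD40 mice, a fall of 0.63 ± 0.19 (1.54-fold lower, adjusted p = 0.0276). In control mice it averaged 305 ± 52.0 CPM with ABX and 513 ± 143 CPM without ABX, a fall of 0.75 ± 0.19 (1.68-fold lower, adjusted p = 0.0206). In both comparisons the groups overlapped (10% of all genes had groups apart in anti-CD40 mice and 6.23% in control mice), by mice 13 and 15 with ABX and mouse 18 without ABX among anti-CD40 mice, and by mouse 5 with ABX and mouse 9 without ABX among control mice. The mean levels ran from control with ABX, the lowest, through anti-CD40 with ABX and control without ABX to anti-CD40 without ABX, and the last 2 of these did not differ beyond their spread. Anti-CD40 mice with ABX and control mice without ABX were not compared. The call in anti-CD40 mice was lost when any one of mice 11, 12, 14, 17, 19 and 20 was left out (-0.59 to -0.53) or the 4 libraries low in Pecam1 (-0.45 ± 0.24, adjusted p = 0.298), and in control mice without mouse 4 or 8 (-0.70 and -0.58).

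Ccl3 was also lower with ABX among anti-CD40 mice: 2.66 ± 1.10 CPM with ABX and 9.12 ± 9.91 CPM without ABX, a fall of 1.77 ± 0.52 (3.40-fold lower, adjusted p = 0.0268). The ranges overlapped, and the fall was 0.88 ± 0.39 (adjusted p = 0.163) without mouse 18, the library with 26.1 CPM. The call was also lost without mouse 11, 14 or 15 (-1.66, -1.68 and -1.62). In control mice Ccl3 was at the limit of counting with ABX and without ABX (2 and 3 counts), and no change can be read from it. Il33 was 2.46 ± 2.23 CPM with ABX and 5.32 ± 3.56 CPM without ABX in anti-CD40 mice, a difference that did not pass (-1.15 ± 0.57, adjusted p = 0.188, 95% interval -2.32 to 0.03). Ccl24 was 4.80 ± 1.99 CPM with ABX and 2.89 ± 0.611 CPM without ABX in anti-CD40 mice (0.71 ± 0.30, adjusted p = 0.117), and it passed without mouse 15 (0.96, adjusted p = 0.0101). For Cx3cl1 the differences were 0.12 ± 0.54 in anti-CD40 mice (adjusted p = 0.904, 95% interval -1.0 to 1.25) and 0.69 ± 0.66 in control mice (adjusted p = 0.631, 95% interval -0.67 to 2.05). In control mice neither Ccl24 (-0.24 ± 0.25, adjusted p = 0.66) nor Il33 (-0.56 ± 0.71, adjusted p = 0.735) passed. The comparisons share groups with those of anti-CD40 against control, so their values are not independent of them.

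The libraries lay in 3 columns of 1 plate, which the labels give as wells. All anti-CD40 mice with ABX were in column 4 and all control mice with ABX in column 3, so for that comparison column and group cannot be told apart within a column. Without ABX only column 4 held both, with mouse 16 against control mice 9 and 10: the log2 CPM differences there were 3.76 for Ccl3, -2.04 for Ccl24, 1.88 for Cx3cl1, 3.02 for Il33 and 0.44 for Il1r1. Each had the sign of the whole comparison, from 1 mouse against 2. Within column 3, Il1r1 differed by -0.83 between 5 control mice with ABX and 3 without ABX, and within column 4 by -0.55 between 5 anti-CD40 mice with ABX and mouse 16. Within those columns the other 4 genes differed by -0.11 (Ccl3), -0.30 (Ccl24), -0.28 (Cx3cl1) and -0.78 (Il33) in control mice, and by -0.89, 0.65, 0.18 and -2.09 in anti-CD40 mice in the same order of genes. With column as a term of the model the falls of Ccl24 and the rises of Ccl3 and Il1r1 with ABX no longer passed (-1.05 ± 0.46, 5.20 ± 3.34 and 0.75 ± 0.34), nor did the falls of Ccl3 and Il1r1 with ABX in anti-CD40 mice (-0.89 ± 0.91 and -0.52 ± 0.32). The changes of Ccl3 (5.65 ± 1.65), Ccl24 (-2.20 ± 0.62) and Il33 (3.31 ± 1.09) without ABX and of Il1r1 in control mice (-0.86 ± 0.22) kept their calls in that fit, with Il33 far above its value without the term (1.65 ± 0.59). Some values that passed in neither fit were also larger with the term. Among them were Cx3cl1 with ABX (2.42 ± 1.27) and without ABX (2.39 ± 1.32), and Il33 with ABX (2.43 ± 1.21). So was the fall of Il33 for ABX in anti-CD40 mice (-1.86 ± 0.82). Others were smaller, such as Cx3cl1 for ABX in control mice (0.23 ± 0.72).

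The partners of these genes were counted from 9 lists of chemokines, their receptors and proteases, IL-1 family ligands and receptors, IL-1 signalling and processing, and type 2 responses. The lists hold 145 genes besides the 5, of which 23 could be named in the counts and 17 passed the filter on low counts. With ABX 13 of the 17 rose and 3 fell (94.1% called, against 51.5% of all genes; median log2 fold change 1.11, against 0.02 over all genes). Without ABX 11 rose and 3 fell (82.4% called, against 60.6% of all genes; median 1.06, against 0.03 over all genes). Among the 17, Il18rap, Il18r1, Nlrp3 and Ccr6 passed the filter only through the anti-CD40 livers, and Mrc1 only through the control livers. The shares called, and the p-values of these genes for anti-CD40 against control, are therefore a description. Many other chemokine and IL-1 genes, Il1a, Il1b, Ccl2 and Cxcl10 among them, were not analysed here because no interval could be given to them alone.

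Receptors of the IL-1 family moved apart. Il1rap, the accessory chain that IL1R1 and ST2 share, fell by 2.13 ± 0.42 with ABX (1.09 ± 0.714 CPM in anti-CD40 mice, 4.90 ± 1.61 CPM in control mice, adjusted p = 0.000152) and by 1.28 ± 0.42 without ABX (1.30 ± 0.474 CPM in anti-CD40 mice, 3.22 ± 2.13 CPM in control mice, adjusted p = 0.011). Il18rap, the accessory chain of the IL-18 receptor, rose by 2.67 ± 0.47 with ABX (adjusted p = 3.91e-05) and by 2.92 ± 0.40 without ABX (adjusted p = 8.6e-07). Its partner Il18r1 rose by 2.24 ± 0.70 with ABX (adjusted p = 0.00974) and changed by 0.97 ± 0.61 without ABX (adjusted p = 0.176). Il1rl1, the receptor of IL-33, did not pass the filter, with 15 counts in anti-CD40 and 5 in control mice with ABX and 13 in anti-CD40 and 3 in control mice without ABX.

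Downstream of IL1R1, 7 of 8 measured signalling genes rose with ABX, where 26.6% of all genes did, and 6 of 8 without ABX, where 31.8% did. The rise was steepest for Nfkbie, an inhibitor of NF-kB (5.44 ± 0.19 with ABX, adjusted p = 6.89e-17; 4.60 ± 0.18 without ABX, adjusted p = 4.85e-16), and Nfkb2, a subunit of NF-kB (4.02 ± 0.22 with ABX, 3.38 ± 0.21 without ABX). Nfkbiz, an inducible nuclear regulator of NF-kB, rose by 2.44 ± 0.18 with ABX and 2.31 ± 0.17 without ABX. Nfkbia, another inhibitor of NF-kB, rose by 1.65 ± 0.16 with ABX and 2.46 ± 0.16 without ABX. Nfkbia was the only one of the 17 genes to pass for the difference of the anti-CD40 effects with and without ABX (-0.81 ± 0.22, adjusted p = 0.0322). With plate column as a term of the model, 0 genes passed for that difference. The difference of Nfkbie had the other sign and did not pass (0.84 ± 0.29, adjusted p = 0.0809). In control mice Nfkbia was higher with ABX (94.7 ± 25.3 CPM) than without ABX (50.6 ± 2.82 CPM, a change of 0.90 ± 0.16, adjusted p = 0.00229). NF-kB lies downstream of CD40 as well as of IL1R1, so these genes do not separate the pathways. The one signalling gene that fell, Chuk (a kinase of the same route), was named after its values were seen: -0.31 ± 0.09 with ABX and -0.54 ± 0.09 without ABX.

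Of the list of IL-1 processing, 2 genes are given here, and both rose with and without ABX. Nlrp3, an inflammasome sensor, rose by 3.38 ± 0.47 with ABX and 3.72 ± 0.40 without ABX. It was also lower with ABX among anti-CD40 mice, at 7.98 ± 2.44 CPM with ABX and 17.5 ± 8.55 CPM without ABX (-1.14 ± 0.32, adjusted p = 0.019). Nlrc4, another inflammasome gene, rose by 1.15 ± 0.30 with ABX and 1.72 ± 0.29 without ABX. Adam17, the sheddase of fractalkine, rose by 1.11 ± 0.16 with ABX (adjusted p = 3.38e-06) and 1.06 ± 0.16 without ABX (adjusted p = 3.49e-06).

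Of the chemokine receptors 3 could be named. Ccr6, the receptor of CCL20, rose by 0.96 ± 0.34 with ABX (3.19 ± 0.550 CPM in anti-CD40 mice, 1.61 ± 0.903 CPM in control mice, adjusted p = 0.0198) and by 1.87 ± 0.38 without ABX (2.71 ± 0.610 CPM in anti-CD40 mice, 0.731 ± 0.436 CPM in control mice, adjusted p = 0.000164). Ccr3, the receptor of CCL24 and the only eosinophil marker of 8 that could be named, had 1 count in all 20 libraries, in a control mouse with ABX. Of the type 2 response list, Mrc1, a mannose receptor of macrophages and sinusoidal endothelium, fell with Ccl24: it had 18 counts in anti-CD40 and 463 in control mice with ABX (-4.76 ± 0.41, adjusted p = 1.85e-09), and 10 in anti-CD40 and 511 in control mice without ABX (-5.63 ± 0.45, adjusted p = 4.93e-10). Rora, a nuclear receptor gene, changed by -0.03 ± 0.11 with ABX (adjusted p = 0.849) and 0.09 ± 0.11 without ABX (adjusted p = 0.491).

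**Figure D5:**
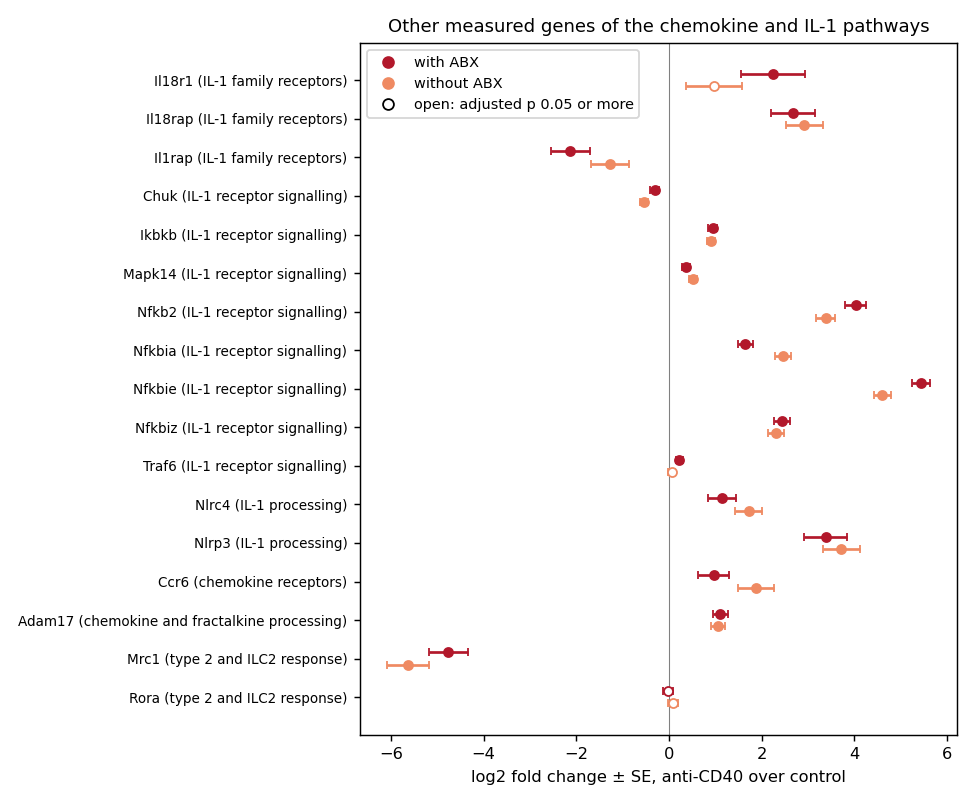
Log2 fold change ± SE (x axis) for anti-CD40 over control with ABX and without ABX of 17 other tested genes (y axis, list in brackets); open points did not pass at an adjusted p under 0.05. With ABX, Il1rap, Chuk and Mrc1 were the 3 called lower and 13 were called higher.

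Markers of macrophages changed in both directions with anti-CD40, and those of endothelium fell in part. Of 9 macrophage and monocyte markers 3 could be named, and their summed level was 283 to 891 CPM in anti-CD40 and 109 to 158 CPM in control mice with ABX, and 245 to 971 CPM in anti-CD40 and 106 to 239.9 CPM in control mice without ABX. Within that list Lyz2 and Ms4a7 rose, while Adgre1 fell to 0.77 to 5.18 CPM in anti-CD40 mice with ABX, against 14.3 to 27.6 CPM in control mice. Of 10 endothelial markers 4 could be named, with a summed level of 14.5 to 70.3 CPM in anti-CD40 and 90.5 to 115 CPM in control mice with ABX, and 25.8 to 102 CPM in anti-CD40 and 98.7 to 146 CPM in control mice without ABX. Of the 3 endothelial markers tested, Stab1 and Stab2 fell with ABX and only Stab2 without ABX, while Pecam1 did not pass with ABX (-0.53 ± 0.53, adjusted p = 0.433) or without ABX (-0.19 ± 0.51, adjusted p = 0.777). Marco, the 1 Kupffer cell marker of 8 that could be named, was 22.9 to 33 CPM in anti-CD40 and 3.36 to 18.6 CPM in control mice with ABX, and 38.5 to 133 CPM in anti-CD40 and 9.5 to 93.1 CPM in control mice without ABX; the 93.1 CPM were those of mouse 8, which also had the highest Il1r1, Il33, Cx3cl1 and Ccl24 of its group. Of 8 neutrophil markers none could be named. The part of these cell types in the changes of the 5 genes was not tested.

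Genes with a like pattern over the 20 libraries were taken as the 3 tested genes with the highest Pearson correlation of log2 CPM to each of the 5. For Ccl3 they were Ifit1bl1 (r = 0.96, and 0.78 after taking out group means), Gm8995 (0.96 and 0.73) and Cd177, a neutrophil surface gene (0.96 and 0.73). Cd177 was 2.67 ± 0.527 CPM in anti-CD40 and 0.144 ± 0.149 CPM in control mice with ABX, and 13.3 ± 11.2 CPM in anti-CD40 and 0.245 ± 0.226 CPM in control mice without ABX. For Ccl24 they were Mrc1 (0.91 and 0.62), Macf1, a cytoskeletal linker (0.90 and 0.55), and F8, clotting factor VIII (0.89 and 0.64). F8 was 3.14 ± 2.28 CPM in anti-CD40 and 12.8 ± 1.54 CPM in control mice with ABX, and 2.81 ± 1.09 CPM in anti-CD40 and 12.3 ± 2.06 CPM in control mice without ABX. For Cx3cl1 they were Adam19 (0.82 and 0.86), Itga3, an integrin (0.78 and 0.78), and Ezr, a membrane linker (0.78 and 0.76). For Il33 they were Map4k4, a kinase (0.91 and 0.88), Adamts4, a matrix protease (0.89 and 0.87), and Cyp1b1, a cytochrome P450 (0.88 and 0.89). For Il1r1 they were Rrp12 (0.87 and 0.66), Ahdc1 (0.87 and 0.69) and Fkbp5, a glucocorticoid-induced chaperone (0.81 and 0.47). Fkbp5 shared the order of the group means of Il1r1: 60.8 ± 4.19 CPM in anti-CD40 and 46.8 ± 10.8 CPM in control mice with ABX, and 87.6 ± 10.3 CPM in anti-CD40 and 67.5 ± 14 CPM in control mice without ABX.

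Among the 5 genes themselves, Ccl3 and Ccl24 ran opposite over the 20 libraries (r = -0.79), but not once group means were taken out (r = 0.17). Within groups the closest pair was Ccl24 and Il33 (r = 0.46 after group means), and Il1r1 had r between -0.26 and 0.06 with the other 4. These correlations describe 20 libraries in 4 groups and were not tested.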

How the data were processed

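For each of 20 liver libraries the authors deposited raw counts, whole numbers for each feature. Trimmomatic 0.38 (trimming), HISAT2 2.1.0 (alignment) and mm10 are named in the submitters' processing notes. Per the file headers, fragments were counted with featureCounts 1.5.0-p2 in paired mode, without strand, over exons of a human annotation (GRCh38, Ensembl release 93). The row names therefore carry no meaning in mouse. Checked on the files, 3576 features on human chromosomes 20, 21 and 22 held 0 counts, and features over mouse exons held 99.46% of all counts.

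Positions were read as mm10 and intersected (bedtools 2.31.1) with GENCODE M21 exons. Of 58395 features, 7463 lay over exactly 1 of 55450 mouse genes by at least 50 bp and were summed into 5552 genes (46.35% of counts). Another 52.34% of counts lay in features over more than 1 gene, which were not used. The count of each feature was taken whole, with any of its intervals outside mouse exons. Counts without strand cannot tell overlapping antisense transcripts apart.

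Groups, mouse numbers and wells came from the labels, and the replicates are individual mice. Levels are TMM-normalised CPM, with totals over all features as library sizes. Tests used edgeR 4.0.16 and R 4.3.3 (filterByExpr, robust quasi-likelihood F-test, two-sided, 1 fit of 20 libraries with a mean per group, Benjamini-Hochberg over 2200 genes, called at an adjusted p under 0.05). Biological variation was 16.7%. DESeq2 1.42.0 was an alternative. The fit was run on simulated counts with the same spread for all genes. Far fewer genes changed there than in these data, as many higher as lower. That run therefore cannot check the scaling between libraries used here. Log2 CPM used a prior count of 2. The Il1r1 parts were compared by exact permutation over mice, chosen after the data were seen. Intervals and limits of counts of 0 cover counting error only, since reads carry no molecular identifiers.

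Genes named are the 5, up to 4 per list by smallest p for anti-CD40 without ABX, and the 3 genes most correlated with each of the 5. Of the lists, 2 genes are not reported here and were left out of the counts. The 5 genes, the lists and the tests were chosen with earlier results of these data known.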

Additional observations from a re-analysis of the deposited data

Results flagged for a closer look

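In 2 of the 20 combinations of gene and group, 1 mouse stood apart from its group by Dixon's test at the 95% level, and chance marks about 1 in 20. Cx3cl1 was 4.81 CPM in mouse 1, a control mouse with ABX, while the other 4 mice of its group had 0.372 to 0.923 CPM. In the same mouse the genes with a pattern most like Cx3cl1 were also the highest of the group: Ezr at 32.1 CPM against 3.79 to 7.20 CPM in the others, Itga3 at 14.9 CPM against 7.60 to 8.67 CPM, and Adam19 at 2.25 CPM against 0.930 to 1.11 CPM. These genes were picked by their correlation with Cx3cl1 over the same 20 libraries, mouse 1 included. Their high values there are therefore no separate evidence. Il1r1 was 395 CPM in mouse 5, also a control mouse with ABX, while the others had 263 to 299 CPM.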

How the results depend on the processing

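Under all alternatives, 0 calls of the 5 genes turned round. When library totals replaced TMM scaling, the median log2 fold change of all genes was 0.37 in place of 0.02 for anti-CD40 with ABX and 0.27 in place of 0.03 without ABX, and the share of calls that were higher was 76.8% in place of 51.6% and 69.7% in place of 52.5%. It was 80.3% in place of 57.8% for the difference of effects, and for ABX it was 20.1% in place of 51.7% in control mice and 45.1% in place of 54.6% in anti-CD40 mice. Under that scaling Cx3cl1 (1.58) and Il1r1 (0.58) also passed without ABX. With no filter on low counts, Il33 without ABX (1.63), Il1r1 with ABX (0.44), and the ABX falls of Il1r1 in control mice (-0.74) and of Ccl3 (-1.77) and Il1r1 (-0.62) in anti-CD40 mice no longer passed; more genes are then adjusted over. With only the groups compared in the fit, the ABX fall of Ccl3 in anti-CD40 mice did not pass (-1.76). With plate column as a term, Ccl3 (5.20), Ccl24 (-1.05) and Il1r1 (0.75) with ABX and Ccl3 (-0.89) and Il1r1 (-0.52) for ABX in anti-CD40 mice lost their calls, and edgeR called 690 genes for anti-CD40 with ABX, 735 without ABX, 77 for ABX in control mice, 5 in anti-CD40 mice and 0 for the difference (282 with an unadjusted p under 0.05). The cause was not tested.

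Alternatives chosen after seeing the data: the 1256 bp part of Il1r1 alone passed without ABX (0.43), and the 428 bp part alone did not pass with ABX (0.37) or for ABX in anti-CD40 mice (-0.50). Without the 4 libraries low in Pecam1, Cx3cl1 passed without ABX (1.77) and Il33 with ABX (1.65), Il1r1 no longer passed with ABX (0.48) or for ABX in anti-CD40 mice (-0.45), and 79 genes were called for the difference and 170 for ABX in anti-CD40 mice.

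Leaving out 1 mouse at a time gave, for anti-CD40 with ABX, 0.49 to 1.98 for Cx3cl1 and 0.33 to 0.58 for Il1r1; without ABX, 0.87 to 1.59 for Cx3cl1, 1.38 to 2.1 for Il33 and 0.23 to 0.50 for Il1r1; for the difference, 0.82 to 1.20 for Ccl24 and 88 to 194 genes; for ABX in control mice, -0.86 to -0.58 for Il1r1 and 89 to 137 genes; and for ABX in anti-CD40 mice, -2.0 to -0.88 for Ccl3, 0.58 to 0.96 for Ccl24, -0.74 to -0.53 for Il1r1 and 225 to 364 genes. A minimum overlap of 100 bp leaves Il33 unmeasured. Depth limits Ccl3 (0 to 158 counts a library), Cx3cl1 (1 to 30) and Il33 (3 to 65). No paired analysis was possible because no mouse number is shared between groups.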
